A study of Mus musculus with 6 samples.

Results

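MicroRNA loci are the subject here: listed cytosines whose nearest annotated transcription start belongs to a gene with a name beginning Mir and a number, or Mirlet. Of the 6756 cytosines in the authors' deposited tables, 102 met this rule, and their nearest genes were 50 of the 3344 genes named in the tables. The names of all 50 begin with Mir and a number, and no let-7 gene was among them. DNA came from LSK cells, the bone marrow fraction that lacks lineage markers, carries Sca-1 and Kit and holds the blood stem and progenitor cells. The Tet1 KO group comprised 3 samples from mice lacking Tet1, a dioxygenase that oxidises 5-methylcytosine. The WT group comprised 3 samples from wild-type mice. Both groups were 6 months old, of the strain labelled CD57BL/6. How the Tet1 allele was disrupted is not stated in the labels, nor is it stated that each sample is a different mouse. Enhanced reduced representation bisulfite sequencing was used, which reads mainly CpG-rich sequence and does not separate 5-methylcytosine from 5-hydroxymethylcytosine.

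The tables give 1 methylation difference per cytosine, Tet1 KO minus WT in percentage points, and list those of at least 25 percentage points in either direction. Which genotype is higher was read from the list names (hyper, hypo) and from the sign. With no methylation levels or read coverage per sample at hand, depth is unknown and the differences carry no replicate error. Every difference below is therefore a description, with no test. Means and ranges run over the listed cytosines of a gene and are not replicate errors.

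A microRNA is cut from a longer primary transcript: Drosha and Dgcr8 release a hairpin in the nucleus, Dicer1 trims it, and the mature strand guides an Argonaute protein to messenger RNAs. Pairing of the seed, bases 2 to 8 of the mature RNA, largely decides which messengers are bound. The annotated start of a microRNA gene is the end of its hairpin, and the promoter of the primary transcript can lie far upstream or be that of a host gene. Methylation of CpG-rich sequence at several of the genes described here, among them those of miR-34a, miR-137, miR-9, miR-129-2, miR-203 and miR-193a, is known from human tumours, where it accompanies their silencing. RNA was not measured in these samples.

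The mature RNAs below are those of genes with at least 2 listed cytosines, a cytosine within 1000 bp of the start, 1 of the 5 most changed cytosines, or a place in a list of microRNAs studied in blood cells, provided a listed cytosine lay within 10000 bp of the start. The mature RNA of Mir338 is added because it pairs with that of Mir3065. For genes with a mature RNA from both arms of the hairpin, 1 arm is shown. Sequences are from RefSeq (GRCm38.p6), written 5′ to 3′, with the seed in capitals.
mmu-miR-9-5p: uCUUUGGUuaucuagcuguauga
mmu-miR-137-3p: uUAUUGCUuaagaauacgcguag
mmu-miR-129-5p: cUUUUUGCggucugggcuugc
mmu-miR-7a-5p: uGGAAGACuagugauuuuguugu
mmu-miR-34a-5p: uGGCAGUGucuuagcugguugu
mmu-miR-125b-5p: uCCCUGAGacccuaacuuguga
mmu-miR-193a-3p: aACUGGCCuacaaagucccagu
mmu-miR-203-3p: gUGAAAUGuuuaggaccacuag
mmu-miR-26b-5p: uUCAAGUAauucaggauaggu
mmu-miR-191-5p: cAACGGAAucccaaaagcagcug
mmu-miR-671-5p: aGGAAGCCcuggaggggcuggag
mmu-miR-3065-5p: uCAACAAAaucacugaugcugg
mmu-miR-338-3p: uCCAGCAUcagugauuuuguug
mmu-miR-1982-5p: uUGGGAGGguccuggggagg
mmu-miR-5122: cCGCGGGAcccggggcugug
mmu-miR-5126: gCGGGCGGggccgggggcgggg
mmu-miR-695: aGAUUGGGcauaggugacugaa

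RefSeq gave mature RNAs for 41 of the 50 genes, 67 mature RNAs with 67 different seeds. The only seed held by more than 1 listed gene was UUUUUGC, that of miR-129-5p, which is made from both Mir129-1 and Mir129-2. The listed loci were thus nearly all of different seed families, and some of these families have other loci that were not listed. Of the genes sharing the seed of miR-9-5p, Mir9-1 and Mir9-3 give the identical mature RNA, and neither was nearest to a listed cytosine. The same held for Mir125b-1, identical in miR-125b-5p to Mir125b-2, and for Mir7-1, identical in miR-7a-5p to Mir7-2. Whether cytosines near those genes were read is not known from the lists.

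Most listed cytosines near microRNA genes, like most listed cytosines of all genes, were more methylated in Tet1 KO than in WT cells. In the authors' deposited tables, 100 of the 102 cytosines, nearest 48 genes, were hypermethylated and 2, nearest Mir3475 and Mir691, were hypomethylated. Hypermethylated cytosines made up 98.0% of the microRNA cytosines (95% interval by the exact Clopper-Pearson method, 93.1 to 99.8%, covering counting error alone), beside 92.8% of all listed cytosines. When cytosines of a gene and direction less than 1000 bp apart were joined, there were 55 hypermethylated and 2 hypomethylated regions, and 18 of these 57 regions held at least 2 cytosines. Neighbouring cytosines are not independent, so the interval is narrower than the data warrant, and no difference from the whole lists is read from it.

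**Figure D1:**
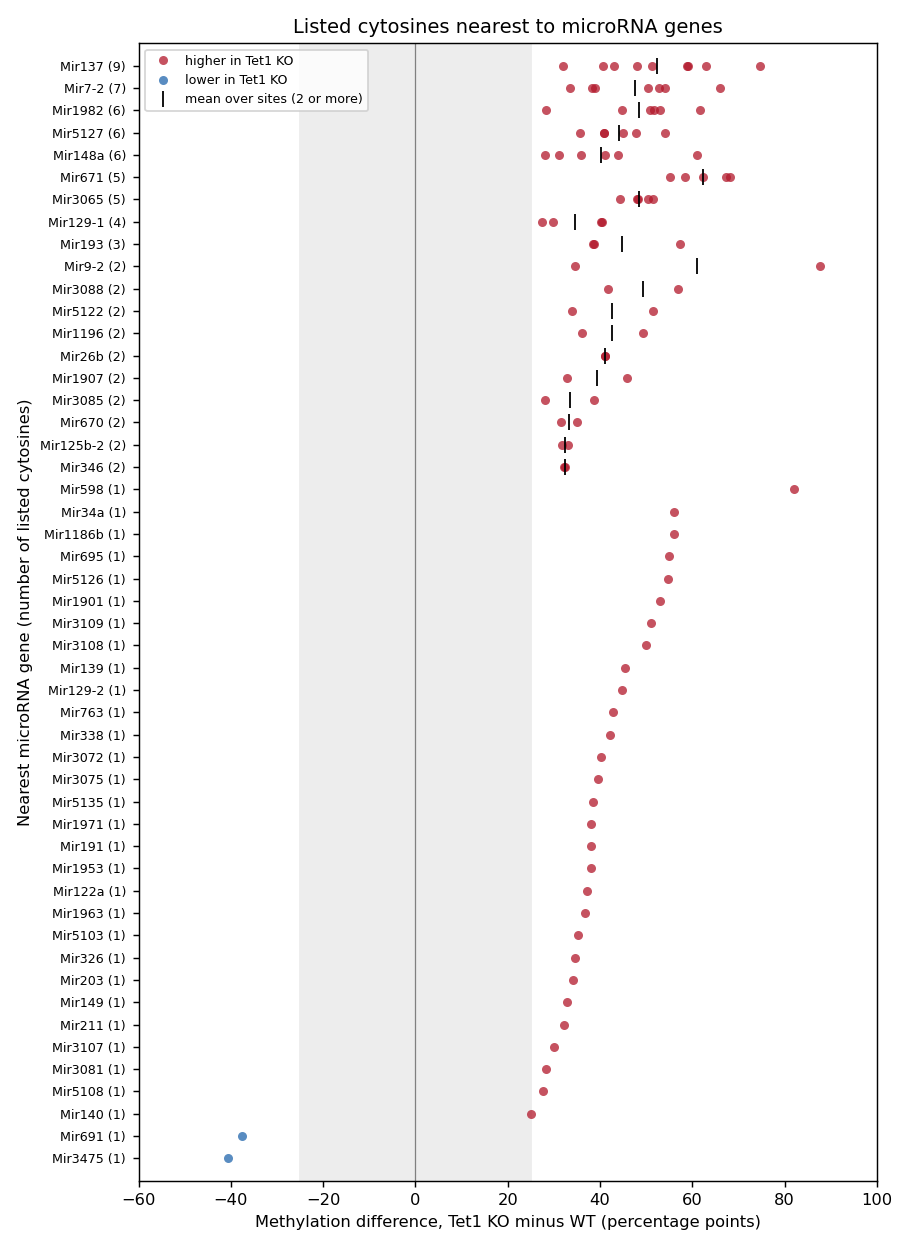
Methylation difference (x axis, Tet1 KO minus WT, percentage points) of each of the 102 listed cytosines, by nearest microRNA gene (y axis, number of cytosines in brackets). Points are single cytosines, ticks the mean of genes with at least 2, and the grey band is the range that the authors did not list; all points lie to the right of the band except those of Mir691 and Mir3475.

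The size of the gains was close to that of the lists as a whole. The 100 hypermethylated microRNA cytosines had a median of 41.5 percentage points by the authors' deposited table, between 25.1 and 87.7, and the 6270 hypermethylated cytosines of all genes had a median of 41.1 percentage points (25.0 to 97.6). The 25th and 75th percentiles were also near each other, at 35.2 and 51.9 percentage points near microRNAs and 33.3 and 51.3 percentage points over the whole deposited list. At least 60 percentage points were reached by 10 microRNA cytosines (10%), and by 770 of all hypermethylated cytosines (12.3%). Those 10 belonged to 7 genes, Mir9-2, Mir598, Mir137, Mir671, Mir7-2, Mir1982 and Mir148a. Cytosines per gene averaged 2.04 for microRNA genes and 2.02 for all listed genes. A single cytosine was listed for 31 of the 50 microRNA genes (62%), beside 58.2% of all listed genes. At the other end, 7 microRNA genes with at least 5 cytosines held 44 of the 102 (43.1%), where such genes held 27.9% of all listed cytosines. They were 14% of the microRNA genes, and such genes were 7.98% of all listed genes. Many of their cytosines lie close together and are not independent, so the contrast rests on few loci and no difference is read from it.

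The median distance of hypermethylated cytosines to the start was 6726 bp for microRNA genes and 6842 bp for all genes. In the authors' deposited tables, 18 cytosines of 9 genes lay within 1000 bp of the start and 58 cytosines of 24 genes within 10000 bp. The shares were 17.6% and 56.9%, beside 24.9% and 52.8% of all listed cytosines. Another 7 cytosines (6.86%, beside 10.8% of all listed cytosines) were over 100000 bp away, and for 5 genes, Mir1186b, Mir3072, Mir3108, Mir5103 and Mir691, every cytosine was. All 58 cytosines within 10000 bp were hypermethylated, close to the 96.2% (3433 of 3569) of all listed cytosines within that distance. They had a median of 46.4 percentage points in the deposited table. The 42 hypermethylated cytosines farther away had a median of 39.2 percentage points. Over all genes the corresponding deposited medians were 41.8 and 40.2 percentage points. Mir137, Mir7-2, Mir1982, Mir671 and Mir3065 supply many of the near cytosines, so the near median rests on few loci.

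**Figure D2:**
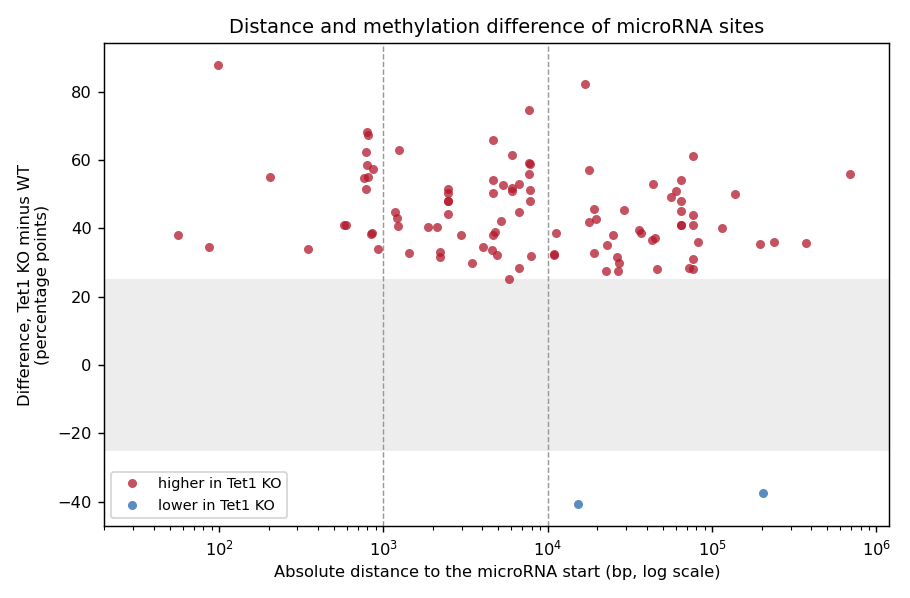
Absolute distance to the microRNA start (x axis, bp, log scale) and methylation difference (y axis, Tet1 KO minus WT, percentage points) of the 102 cytosines, with dashed lines at 1000 and 10000 bp. Both hypomethylated cytosines lie beyond 10000 bp, and the 10 cytosines of at least 60 percentage points include 8 within 10000 bp.

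The sign of the listed distance followed the strand of the cytosine. Multiplied by that strand, it gave a single start for each of the 1394 annotated starts with listed cytosines at 2 or more positions, and the strand so found was that of RefSeq for 16 of 16 microRNA genes, so upstream and downstream could be told apart. Upstream of the hairpin lay 49 of the 102 cytosines (48.0%), beside 37.0% of all listed cytosines. Within 10000 bp, 33 of the 58 lay upstream (56.9%), beside 33.8% over all genes. Of those 33, 23 came from Mir7-2, Mir137, Mir671 and Mir3065, so the share rests on few loci. A microRNA gene is no longer than its hairpin, while the body of a longer gene lies downstream of its start. The upstream shares of microRNA genes and of all genes are therefore not like for like. None of the 84 cytosines of genes with a RefSeq hairpin lay inside it. These hairpins have only 59 to 120 bases, and whether their cytosines were read is not known.

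**Figure D3:**
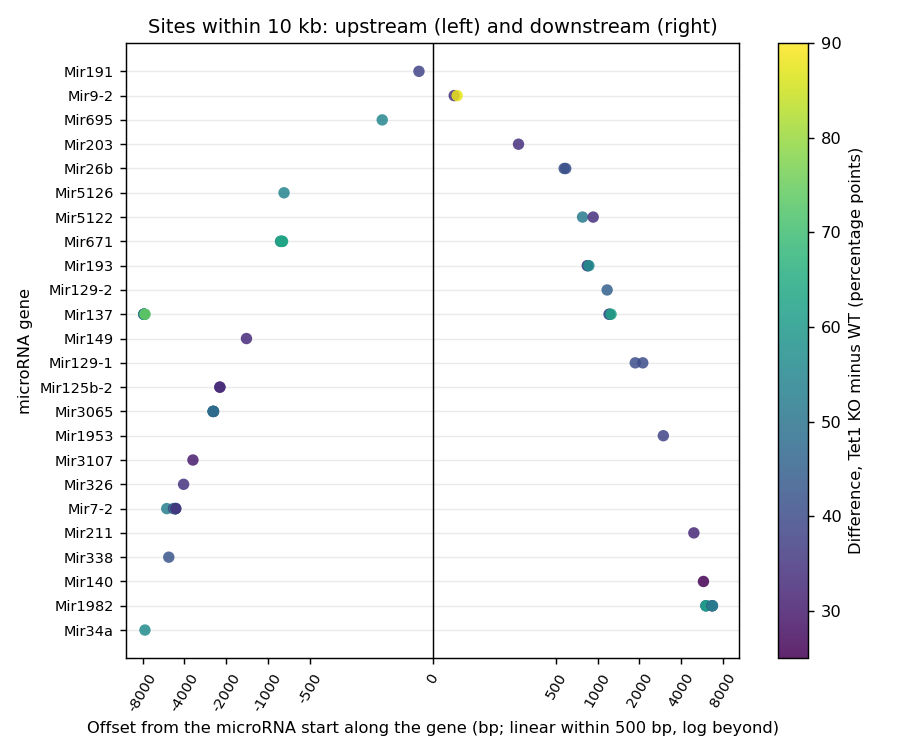
Position of the 58 cytosines within 10000 bp of a microRNA start (x axis, bp along the gene, negative upstream, linear within 500 bp and logarithmic beyond), by gene (y axis), ordered by the nearest cytosine and coloured by methylation difference (Tet1 KO minus WT, percentage points). The brightest point is Mir9-2 at 99 bp, and Mir137 is the only gene with cytosines on both sides.

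The largest difference at any microRNA gene was beside the hairpin of Mir9-2. Mir9-2 is 1 of the 3 genes of miR-9, a microRNA of neural progenitors. Its cytosines lay at chromosome 13, positions 83878506 and 83878518 (mm9), 87 and 99 bp downstream of the start, annotated as its promoter. Their differences in the authors' deposited table were 34.5 and 87.7 percentage points. The cytosine at 87.7 ranked 20 among the 6270 hypermethylated cytosines, while the other, 12 bp away on the same strand, ranked 4412. The RefSeq hairpin of Mir9-2 has 72 bases, so the cytosines fall 16 and 28 bases past its 3′ end, give or take 1 base for how the files count the start. The hairpin is shown with the mature RNAs of its 2 arms in capitals, to give the sequence beside which these cytosines lie.
Mir9-2 hairpin: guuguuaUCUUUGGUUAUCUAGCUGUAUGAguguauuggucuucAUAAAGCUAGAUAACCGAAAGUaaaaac

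Mir671 had the highest mean difference of the 19 microRNA genes with at least 2 cytosines. Its 5 cytosines, at chromosome 5, 24097122 to 24097149 (mm9), lay 783 to 810 bp upstream and were annotated as its promoter. In position order, the authors' deposited table gave them 67.2, 55.1, 58.5, 68.1 and 62.4 percentage points, a mean of 62.3. All 5 were over 55 percentage points and on the reverse strand within 28 bp, close enough to be read in a single 50 bp read. Mir671 lies inside Chpf2, a chondroitin polymerising factor gene, in RefSeq.

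Mir695 and Mir5126 also had promoter cytosines. The single cytosine of Mir695 (chromosome 2, 155182348), 205 bp upstream, differed by 55.0 percentage points by the authors' deposited table. That of Mir5126 (chromosome 1, 84691650), 764 bp upstream, differed by 54.7 percentage points in the deposited table. Both microRNAs lie inside protein-coding genes in RefSeq, Mir695 in Pigu, of the glycosylphosphatidylinositol transamidase, and Mir5126 in Dner, a Notch ligand gene. The cytosine nearest to any microRNA start was that of Mir191 (chromosome 9, 108470594), 56 bp upstream. It differed by 38.0 percentage points in the deposited table, and its annotation names the promoter of Mir425, which lies within 10000 bp of Mir191 in RefSeq. Both are inside Dalrd3.

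Downstream of the hairpin lay the cytosines annotated to the termination sites of microRNA genes. Mir193, now Mir193a, had 3 cytosines at chromosome 11, 79526312 to 79526335, 841 to 864 bp downstream. Their differences in the authors' deposited table were 38.5, 38.6 and 57.4 percentage points, the last standing apart. miR-193a is known from human acute myeloid leukaemia as a repressor of KIT. Mir26b, inside the phosphatase gene Ctdsp1, had cytosines 573 and 588 bp downstream (chromosome 1, 74441457 and 74441472), each at 41.1 percentage points in the deposited table. The cytosine of Mir203 (chromosome 12, 113369439), a microRNA of skin differentiation, was 348 bp downstream and differed by 34.1 percentage points in the deposited table. Mir5122 had 51.4 and 33.9 percentage points in the deposited table, 778 and 928 bp downstream. Together these 4 genes had 8 termination site cytosines.

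The most cytosines of any microRNA gene belonged to Mir137, 9 in 2 clusters. miR-137 is a microRNA of neurons and neural stem cells. Upstream by 7697 to 7854 bp, at chromosome 3, 118128921 to 118129078 (mm9), lay 6 cytosines on both strands. In position order the authors' deposited table gave them 31.9, 58.8, 48.0, 51.3, 59.1 and 74.7 percentage points. Downstream by 1206 to 1249 bp, at 118137981 to 118138024, lay 3 more at 43.0, 40.7 and 63.0 percentage points in the deposited table. The differences of the clusters overlapped, and the mean over all 9 was 52.3 percentage points. All were annotated as intergenic.

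Both genes of miR-129, a microRNA of the brain, were nearest to hypermethylated cytosines. Mir129-1 had 4 intergenic cytosines on chromosome 6. Those 1867 and 2115 bp downstream (28974486 and 28974734) differed by 40.3 and 40.4 percentage points by the authors' deposited table, and those 26957 and 26920 bp upstream by 29.9 and 27.5. The cytosines near the hairpin were thus the higher pair. Mir129-2, on chromosome 2, had 1 intergenic cytosine (94080440), 1170 bp downstream, at 44.8 percentage points in the deposited table. Farther along the same stretch, Mir670 was nearest to cytosines at 94124469 and 94127913, 22913 and 26357 bp upstream, at 35.0 and 31.6 percentage points in the deposited table.

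Mir7-2 had 7 intergenic cytosines, all upstream, at chromosome 7, 86027801 to 86028553 (mm9) and 4610 to 5362 bp from the start. miR-7 is abundant in pancreatic islets and brain. In position order the authors' deposited table gave 52.8, 38.8, 38.2, 65.9, 54.1, 50.4 and 33.5 percentage points, a mean of 47.7. Those at 86028507 and 86028508, with 38.2 and 65.9 percentage points, are the cytosines of a single CpG on opposite strands, and differed from each other by 27.8 percentage points. The other CpG listed on both strands near a microRNA, that at chromosome 18, 82124327 and 82124328 beside Mir5127, had 45.0 and 47.9 percentage points in the deposited table, a gap of 2.86. Over all 57 such pairs in the authors' deposited tables the median gap was 8.29 percentage points, with 25th and 75th percentiles of 3.94 and 16.4 and a largest gap of 40.4, and all 57 had the same direction. Since methylation of the strands of a CpG is usually alike, these gaps give a scale for the error of a single listed difference, for pairs in which both cytosines passed the threshold.

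Of 60 microRNA genes studied in blood cells, listed from general knowledge of the field, 2 were nearest to a listed cytosine (3.33%) and 58 were not. Over all 1180 microRNA genes of the RefSeq table, 48 were (4.07%). How many of the 1180 were in the annotation behind the authors' lists is not known. These shares may therefore not be like for like, and no difference or likeness is read from them. The first of the blood list genes was Mir34a, a target of p53. Its single cytosine (chromosome 4, 149434864), intergenic and 7699 bp upstream, differed by 56.0 percentage points by the authors' deposited table. The second was Mir125b-2, a gene of miR-125b, which expands blood stem cells and causes leukaemia when overexpressed in mice. Its cytosines, at chromosome 16, 77644298 and 77644302, lay 2220 and 2216 bp upstream and differed by 31.7 and 33.0 percentage points in the deposited table. These values are among the lower ones of the microRNA cytosines.

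Some cytosines lay in another gene, and the microRNA was often a resident of it. Introns held 23.5% and exons 10.8% of the microRNA cytosines, beside 31.7% and 15.2% of all listed cytosines. The annotation named a transcript other than a microRNA for 36 cytosines of 23 microRNA genes. In RefSeq, 33 of the 50 microRNA genes lie inside some other gene, and 19 of the 23 lie inside the gene that the annotation named. Inside and host refer here to position alone, whichever strand the microRNA is on. The other 4 were Mir122a with Nedd4l, Mir1982 with Lingo3, Mir3085 with Crtac1 and Mir5103 with Dst, so there the annotation named a neighbour. Named after their values were seen, the genes described next include several with a single cytosine.

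Aatk, a kinase gene expressed in neurons, contains Mir338 and Mir3065 by position. Their hairpins overlap on opposite strands, so they cannot both share the strand of Aatk. In the sequences above, 21 of the 22 bases of miR-338-3p are the reverse complement of miR-3065-5p. All 5 cytosines of Mir3065, at chromosome 11, 119873595 to 119873618 (mm9), lay in exon 11 of 14 of Aatk, 2463 to 2486 bp upstream. In position order the authors' deposited table gave 50.5, 51.4, 48.1, 44.3 and 48.0 percentage points. This was a narrow range, over 24 bp of a single strand. The cytosine of Mir338 (119881359) lay in intron 2 of 13 of Aatk, 5183 bp upstream of Mir338, at 42.1 percentage points in the deposited table. Aatk was itself the nearest gene of 4 further cytosines, all hypermethylated, with a deposited mean of 51.2 percentage points.

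Mir1982, inside the antizyme gene Oaz1, was nearest to 6 cytosines in exon 2 of 2 of the neighbouring Lingo3, at chromosome 10, 80297574 to 80298271, 6032 to 6729 bp downstream. In position order the authors' deposited table gave 51.7, 50.9, 61.6, 28.3, 44.8 and 53.0 percentage points. They form a group of 3 and a group of 3, each within 42 bp, and the ranges of the groups overlap. Mir598, inside Xkr6, had 1 cytosine in intron 1 of 2 of that gene (chromosome 14, 64362772), 16746 bp downstream. At 82.1 percentage points in the deposited table it was the next largest difference after that of Mir9-2 and ranked 59 among all hypermethylated cytosines.

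Pairs of cytosines also lay in further introns. Mir3088, in the adenylate kinase gene Ak8, had 41.8 and 57.0 percentage points in intron 10 of 12 in the authors' deposited table. Mir1907, in Trps1, a GATA-type repressor gene, had 45.8 and 32.9 percentage points in intron 1 of 5 in the deposited table. Mir346, in the glutamate receptor gene Grid1, had 32.5 and 32.2 percentage points in intron 2 of 15 in the deposited table. Mir3085 was nearest to cytosines in introns 11 and 3 of 14 of Crtac1, at 38.8 and 28.0 percentage points in the deposited table. In all of these the microRNA start was over 10000 bp away.

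Single cytosines lay in several more host genes. Mir140, a cartilage microRNA in the ubiquitin ligase gene Wwp2, had 1 cytosine in the 3′ UTR of exon 24 of 24 (chromosome 8, 110080941), 5797 bp downstream. At 25.1 percentage points by the authors' deposited table it was the smallest of the microRNA differences. Mir211, in the melanocyte channel gene Trpm1, had 32.1 percentage points in intron 9 of 26 in the deposited table. Mir149, in the glypican gene Gpc1, had 32.8 percentage points in intron 1 of 8 in the deposited table, 1426 bp upstream. Mir326, in the β-arrestin gene Arrb1, had 34.5 percentage points in intron 1 of 15 in the deposited table. Mir3107, which overlaps the erythroid microRNA gene Mir486 in the red cell ankyrin gene Ank1, had 30.0 percentage points in intron 43 of 43 in the deposited table, 3470 bp upstream. Ank1 was the nearest gene of 4 other cytosines, all hypermethylated, with a deposited mean of 52.2 percentage points. Mir139, in the phosphodiesterase gene Pde2a, had 45.5 percentage points in intron 17 of 30 in the deposited table, and Pde2a had 2 hypermethylated cytosines of its own with a mean of 31.1. Among the genes other than microRNAs named by the annotation, 7 were nearest to cytosines of their own, 15 in all. Of these 15, 14 were hypermethylated, close to the share of all listed cytosines (92.8%). The other was that of Zmiz1, a transcriptional coregulator gene that hosts Mir3075. In the deposited table the cytosine of Mir3075, in intron 1 of 23 of Zmiz1, had 39.5 percentage points, and that of Zmiz1 itself had -32.3.

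Intergenic clusters far from the start were listed for Mir148a, which lies inside Gm38821 in RefSeq, and for Mir5127. miR-148a is known to act on DNA methyltransferase transcripts in human cells. Mir148a had 6 cytosines on chromosome 6, 51137872 to 51143455 (mm9), 76454 to 82037 bp downstream of its start. In position order the authors' deposited table gave 36.0, 31.1, 43.8, 28.1, 41.0 and 61.0 percentage points. The first lay in a SINE repeat and the next pair in an LTR repeat. Mir5127 had 6 on chromosome 18, of which 5 lay at 82124295 to 82124358, at least 64461 bp downstream, with 54.0, 40.9, 45.0, 47.9 and 40.9 percentage points in the deposited table. The other (81815345), 373474 bp away, had 35.7 percentage points. At such distances the microRNA is the nearest annotated start and no more is implied. Mir1196, on chromosome 14, was nearest to cytosines 236531 and 56236 bp away, at 36.0 and 49.2 percentage points in the deposited table.

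Both losses of methylation were over 10000 bp from the microRNA. The cytosine nearest Mir3475 (chromosome X, 136830215) was intergenic, 15272 bp upstream, at -40.6 percentage points by the authors' deposited table. The cytosine nearest Mir691 (chromosome 16, 74137759) lay in intron 2 of 27 of Robo2, an axon guidance receptor gene, 204553 bp downstream, at -37.5 percentage points in the deposited table. Over all genes the 486 hypomethylated cytosines had a median of -34.1 percentage points. Their median distance to the start was 22628 bp, beside 6842 bp for all hypermethylated cytosines. Distance was thus a trait of the hypomethylated list as a whole, and nothing particular to microRNAs is read from 2 cytosines. Mir3475 was the only microRNA gene listed on the X chromosome.

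The remaining 23 genes, outside the rule for naming, had 1 hypermethylated cytosine each, and 8 of these lay within 10000 bp of the start. Their differences in the authors' deposited table ran from 25.1 to 55.9 percentage points, with a median of 38.1, and their distances from 1170 to 693217 bp. The most distant was that of Mir1186b. Several of the 23 have been described above. Of the others, Mir122a, the gene of the liver microRNA miR-122, had 37.2 percentage points in intron 23 of 29 of Nedd4l, 45135 bp upstream, in the deposited table. Mir763, in Hmga2, the gene of a chromatin protein of fetal stem cells, had 42.8 percentage points in intron 3 of 4 in the deposited table. Mir3072 lies in the microRNA host Mirg on chromosome 12, with 8 other microRNA genes within 10000 bp, and its cytosine, 114175 bp downstream in a LINE repeat, had 40.2 percentage points in the deposited table.

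By annotated feature, 48 of the 102 cytosines were intergenic (47.1%, exact 95% interval 37.1 to 57.2%), beside 36.7% of all listed cytosines. Introns held 24 (23.5%, beside 31.7%), exons 11 (10.8%, beside 15.2%), promoters 10 (9.80%, beside 10.7%) and termination sites 8 (7.84%, 3.45 to 14.9%, beside 1.81%). All 11 exon cytosines came from Mir1982 and Mir3065, so that share rests on 2 loci. The 8 termination site cytosines came from 4 genes and lay 348 to 928 bp from the start. A microRNA gene is no longer than its hairpin, so its termination site lies close to its start, unlike that of a longer gene. The shares of features near microRNAs and over all genes are therefore not like for like. CpG island labels were given in the tables to intron and intergenic cytosines alone. None of the 72 such microRNA cytosines had one, beside 6.22% (287 of 4617) over all genes. With 3 counts taken as the limit for a count of 0, a share of up to 4.17% is allowed. The exact 95% interval allows up to 4.99%. Both limits cover counting error only and treat neighbouring cytosines as independent, so they are lower than the data warrant. No difference from all genes is read from them. Repeats held 5 of the 72 (6.94%), beside 12.0%.

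**Figure D4:**
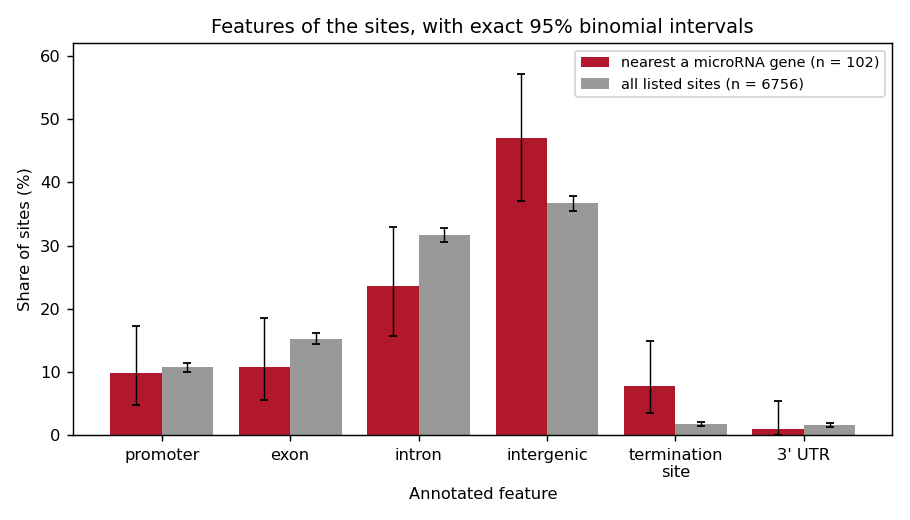
Share of cytosines (y axis, %) by annotated feature (x axis) for the 102 cytosines nearest a microRNA gene and for all 6756 listed cytosines, with exact 95% intervals that treat cytosines as independent; 5′ UTR and non-coding exons, which held no microRNA cytosine, are left out. The bar for intergenic cytosines is higher near microRNAs (47.1%) than over all listed cytosines (36.7%), as is that for termination sites (7.84% and 1.81%). Termination site cytosines near microRNAs came from 4 genes, and microRNA genes are no longer than a hairpin, so these shares are not like for like.

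The genes that make and use microRNAs were also looked up. Of 26 genes of processing, export and effector steps, 5 were the nearest gene of a listed cytosine (19.2%), beside 2991 of the 21900 protein-coding genes of RefSeq (13.7%). There were 4 with hypermethylated cytosines alone and 1, Smad1, with a hypomethylated one. No listed cytosine was nearest to Drosha, Dgcr8, Xpo5 or an Argonaute gene. Tut7, listed as Zcchc6, the gene of a terminal uridylyl transferase that modifies let-7 precursors, was nearest to 4 intergenic cytosines on chromosome 13. Those at 59983546 and 59983581, 59038 and 59073 bp away, differed by 88.6 and 82.8 percentage points by the authors' deposited table, and the other pair by 32.0 and 27.1. Dicer1, which cuts the hairpin, had 1 cytosine at 29.7 percentage points in the deposited table, 19848 bp away in an exon of Clmn. Tnrc6b, of the silencing complex, had 1 intergenic cytosine at 34.6 percentage points in the deposited table, 5195 bp away. Smad5, which joins the Drosha complex after BMP signalling in human cells, had 3 intergenic cytosines at 31.5, 53.5 and 52.3 percentage points in the deposited table, and Smad1 had 1 at -30.9, 108890 bp away.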

How the data were processed

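The submitters' processing notes name Bismark and mm9, with no version or role; per the labels, reads were 50 bp and single-end. How differential cytosines were called, on what coverage, at what q-value and with which pooling of samples is information not given in the sources used here. Values deposited by the authors are methylation differences in percentage points and distances in bp to the nearest annotated start, per the file headers. Columns of per-sample values numbered 0, so no test of replicates could be made, and the planned model of counts per cytosine was not run.

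The members and lists were chosen with earlier results of these data known. Positions are those of the files (mm9). Entrez identifiers of 48 of the 50 microRNA genes were found in the RefSeq tables (GRCm38.p6), which gave names, hosts, strands and sequences. RefSeq positions served to find the genes that contain a microRNA, with no regard to strand, and other microRNA genes within 10000 bp. None of those positions is printed. Named genes had at least 2 listed cytosines, a hypomethylated cytosine, a cytosine within 1000 bp, 1 of the 5 largest differences, or a place in the blood list, which gave 27 genes. Counts, medians and exact intervals were computed with Python 3.11.15, pandas 2.3.3 and scipy 1.17.1, and the joining of cytosines and the median interval were tested on simulated data. Alternatives were 40 percentage points, regions, genes, distances of 10000 and 1000 bp, the forward strand and autosomes.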

Additional observations from a re-analysis of the deposited data

How the results depend on the processing

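No paired analysis was possible because the tables hold 1 difference per cytosine and no values per sample; for the same reason no replicate could be left out. Of the cytosines nearest microRNA genes, 98.0% were hypermethylated (exact 95% interval 93.1 to 99.8%), with a median hypermethylated difference of 41.5 percentage points (exact binomial 95% interval 38.8 to 45.8). Both intervals treat neighbouring cytosines as independent, so they are narrower than the data warrant. The share was 98.3% at 40 percentage points or more, 96.5% over regions, 96.0% over genes, 98.0% on the forward strand and 99.0% on autosomes, all inside that interval. Within 10000 bp and within 1000 bp of the start it was 100%, over 58 and 18 cytosines, beside 96.2% and 97.9% of all listed cytosines at those distances, because both hypomethylated cytosines lie farther away. The median was 40.2 percentage points over regions, 40.7 over genes, 39.5 on the forward strand and 41.5 on autosomes. It was 51.0 percentage points at 40 percentage points or more, a threshold that removes the lower values by construction. It was 46.4 percentage points within 10000 bp and 53.1 within 1000 bp, above its interval; the cause was not tested, and the 18 cytosines within 1000 bp come from 9 genes, with 5 of them from Mir671. Each alternative keeps or joins cytosines of the same lists, so none could reverse the direction. Depth is unknown, and unlisted cytosines were not used here.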
